A study of Mus musculus with 6 samples.

Results

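Histone genes of the replication-dependent type were compared between otocysts that carried the Gt allele of Chd7 and wild type otocysts. An otocyst is the epithelial vesicle that forms the inner ear, and Chd7 encodes a chromatin remodelling enzyme. The 9 genes described here are those of the histone clusters that appeared by name in the deposited lists of called genes, out of 1167 distinct genes in those lists. They were chosen by the adjusted p of the authors, which put them in the lists. They are the linker histone genes Hist1h1c and Hist1h1d and the core histone genes Hist1h2bc, Hist1h2be, Hist1h4i, Hist2h2be, Hist2h3c1, Hist3h2a and Hist3h2ba. Since that call chose them, their folds are a description and carry no test of their own.

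RNA with a poly(A) tail was sequenced from otocysts of mouse embryos of the B6129SF1/J strain at embryonic day 10.5. There were 2 libraries of Chd7Gt/Gt, with 2 copies of the Gt allele, 2 of Chd7Gt/+, with 1 copy, and 2 of Chd7+/+ as the wild type. Each list held a gene symbol, a log2 fold of mutant over wild type and an adjusted p. It held no value per library, so the depth behind a fold is unknown and folds are given without an error. Whether the replicate libraries are of separate embryos is not in the labels. Any spread between libraries that entered the adjusted p-values may therefore be technical. How that spread was estimated is not given in the sources used here. Both comparisons used the same Chd7+/+ libraries. Absence from a list can mean a value beyond the threshold or no measurement at all.

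Core histones (H2A, H2B, H3 and H4) form the protein spool around which DNA is wrapped, and linker histones (H1) bind the DNA where it enters and leaves that spool. Most are made during S phase, from small intronless genes that lie in clusters. Their mRNAs are the exception among animal mRNAs in that most end in a short hairpin, the stem-loop, and have no poly(A) tail. The stem-loop is bound by the stem-loop binding protein SLBP and the transcript is cut just behind it. Some of these genes also give longer transcripts that run past the stem-loop to an ordinary poly(A) signal, and such transcripts are known from cells that have left the cell cycle. A library made from poly(A) RNA samples these longer transcripts and captures the stem-loop form poorly.

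The annotated transcripts of the 9 genes carried both kinds of 3′ end. In the longest coding transcript of each gene in GENCODE M21, a mouse annotation on the GRCm38 build, a 16 nt stem-loop was found behind the stop codon of 7 of the 9. The stem-loops are printed because they mark where a histone mRNA of the usual form would end. The paired stem is in capitals, and 4 bases before and 8 after it are shown in lower case.
Hist1h1c: aaaaGGCTCTtttcAGAGCCaccactcc
Hist1h1d: aaacGGCTCTtttcAGAGCCacccacaa
Hist1h2be: caaaGGCTCTtttcAGAGCCacccaaca
Hist1h4i: taaaGGCCCTttttAGGGCCaccacaaa
Hist2h3c1: caaaGGCTCTtttcAGAGCCaccacagc
Hist3h2a: caaaGGCTCTtttcAGAGCCacccacaa
Hist3h2ba: caaaGGCTCTtttcAGAGCCaccttcca

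Of these 7 genes, 6 had an identical stem and loop, and Hist1h4i had another stem and loop. The stem-loop began 24 to 41 nt behind the stop codon. The GENCODE M21 transcript did not end there in any of the 7. It went on for 169 nt in Hist3h2ba, 330 nt in Hist1h4i, 840 nt in Hist1h1c, 1167 nt in Hist2h3c1, 1643 nt in Hist3h2a, 1861 nt in Hist1h2be and 4884 nt in Hist1h1d. RefSeq gives shorter spans for Hist1h4i (403 nt), Hist3h2ba (462 nt), Hist3h2a (508 nt), Hist2h3c1 (664 nt), Hist1h1c (725 nt) and Hist1h1d (776 nt). Its span for Hist1h2be, 37455 nt, is longer. The lengths past the stem-loop thus hold for the longest GENCODE M21 transcripts and differ between annotations. No match to the stem-loop pattern lay behind the stop codon in the longest GENCODE M21 coding transcripts of Hist1h2bc and Hist2h2be. The search used a fixed pattern of letters, and any other transcripts of these genes were not searched.

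A poly(A) signal, the hexamer AATAAA or ATTAAA that directs cleavage and tailing, lay within the last 50 nt of the transcript in 7 of the 9 genes. The search used the longest GENCODE M21 coding transcripts alone. These sites are printed because a tailed end would lie near them if those transcripts are made. The RefSeq spans of Hist1h1c (725 nt), Hist1h4i (403 nt), Hist2h3c1 (664 nt), Hist3h2a (508 nt) and Hist3h2ba (462 nt) are too short to reach the sites printed for them. Which end the sequenced RNA had was not tested. The signal is in capitals, with the bases around it in lower case.
Hist1h1c: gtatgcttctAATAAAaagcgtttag
Hist1h2be: tgtgttccttATTAAAgcattcctga
Hist1h4i: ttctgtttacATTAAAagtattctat
Hist2h2be: tattattattAATAAAgttaccgatt
Hist2h3c1: ttttaatcccAATAAAaatttaacac
Hist3h2a: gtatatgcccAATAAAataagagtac
Hist3h2ba: taatggtattAATAAAtttggttcaa

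Hist1h1d and Hist1h2bc had such signals only farther from the annotated end. Hist1h1d had 12 hexamers behind its stop codon and Hist1h2bc had 1. Both a stem-loop and a signal near the end were found in the longest GENCODE M21 coding transcripts of 6 of the 9 genes.

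**Figure D1:**
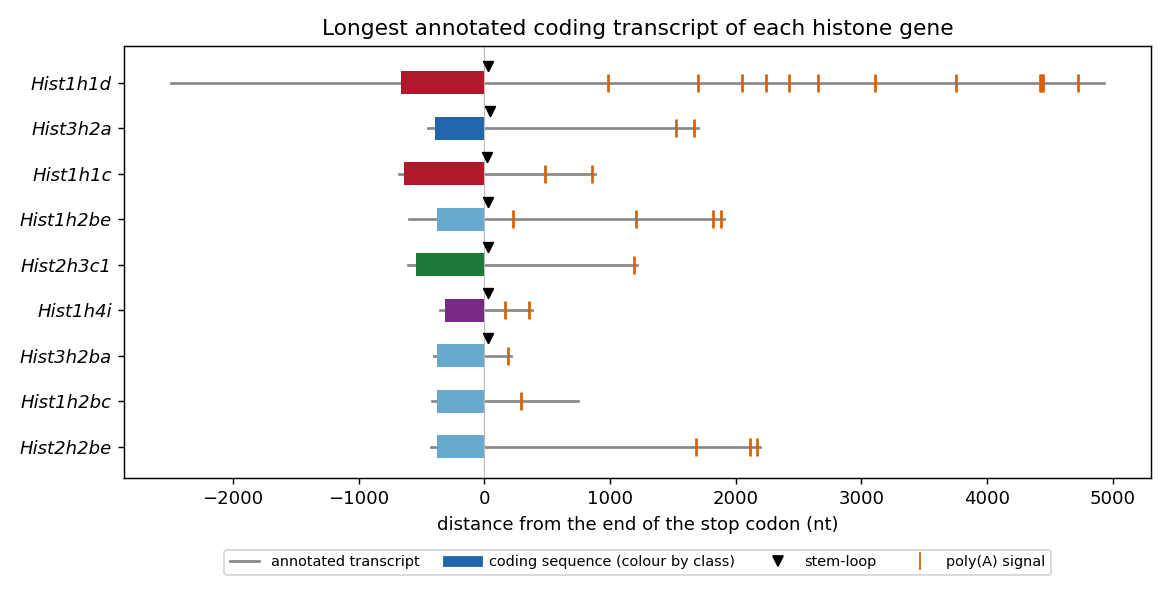
Longest coding transcript of each of the 9 histone genes in GENCODE M21, drawn to scale against the distance in nt from the end of the stop codon, in the order of their log2 folds. Boxes are coding sequences, triangles stem-loops and ticks poly(A) signals; in the 7 genes with a triangle the transcript goes on past it, by 169 nt in Hist3h2ba and by 4884 nt in Hist1h1d.

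In Chd7Gt/Gt otocysts all 9 genes were listed as higher than in Chd7+/+ otocysts, with log2 folds between 1.71 and 3.06 and a median of 2.53, or 5.79-fold, in the authors' deposited table. In Chd7Gt/+ otocysts 0 of the 9 were listed in either direction. In the homozygous comparison the lists named as higher 1.7% of the 21924 protein-coding symbols in GENCODE M21, and as lower 2.75%. In the heterozygous comparison they named 0.178% as higher and 0.406% as lower. The number of genes the authors tested is not given in the sources used here, so these shares are of annotated genes. Calling chose the 9 genes, so nothing is read from their count.

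The linker histone genes stood at the upper end. Hist1h1d, which encodes the H1.3 subtype, was 8.33-fold higher in Chd7Gt/Gt than in Chd7+/+ otocysts (log2 3.06 and adjusted p 0.00108 in the authors' deposited table). Hist1h1c, which encodes H1.2, was 6.61-fold higher (log2 2.73 and adjusted p 2.63e-07 in the authors' deposited table). Of the pair, the larger fold had the weaker adjusted p.

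Among the core histone genes, the H2A gene Hist3h2a was 6.86-fold higher in Chd7Gt/Gt than in Chd7+/+ otocysts (log2 2.78 and adjusted p 1.86e-10 in the authors' deposited table). That was the smallest adjusted p of the 9 genes, and its fold lay between those of the linker genes. The neighbouring H2B gene Hist3h2ba was 3.93-fold higher (log2 1.97 and adjusted p 4.1e-05 in the authors' deposited table).

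H2B was the class with the most genes listed, 4 of the 9. Besides Hist3h2ba they were Hist1h2be, at 6.21-fold (log2 2.64, adjusted p 0.000315), Hist1h2bc, at 3.69-fold (log2 1.88, adjusted p 0.00533), and Hist2h2be, at 3.27-fold (log2 1.71, adjusted p 0.000584), all from the authors' deposited table. Hist2h2be had the lowest fold of the 9 genes. The median log2 fold of the H2B genes was 1.93 in the authors' deposited table, the lowest of any class among the 9 genes.

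The single H4 gene, Hist1h4i, was 4.19-fold higher in Chd7Gt/Gt than in Chd7+/+ otocysts (log2 2.07 and adjusted p 0.000283 in the authors' deposited table). For H3 the single gene was Hist2h3c1, which was 5.79-fold higher (log2 2.53 and adjusted p 0.0109 in the authors' deposited table). Hist2h3c1 had the largest adjusted p of the 9 and was the closest to the threshold of 0.05. How close a histone gene that was not listed came to it is not shown by the lists.

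**Figure D2:**
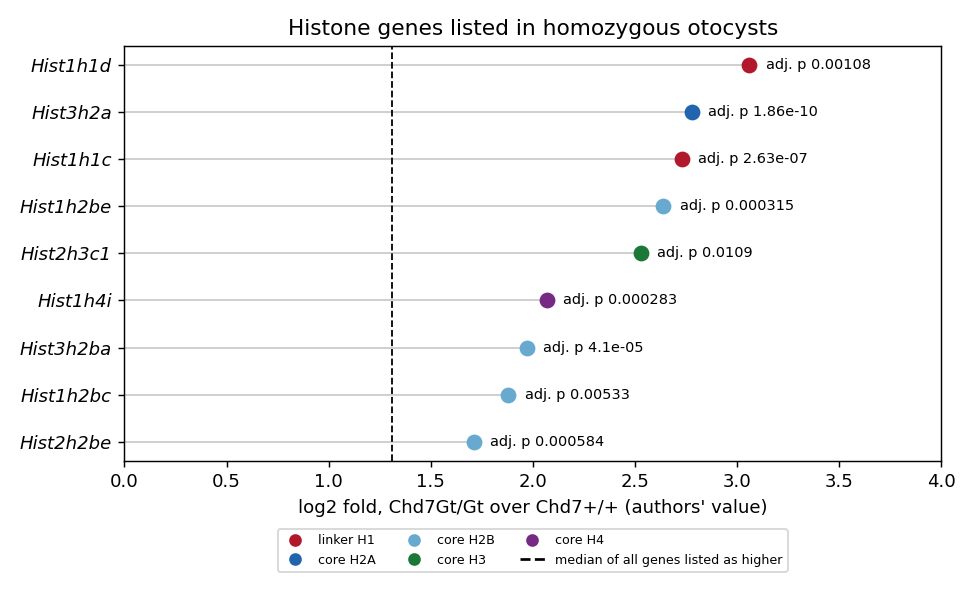
Log2 fold of each histone gene in Chd7Gt/Gt over Chd7+/+ otocysts, as the authors deposited it, coloured by histone class, with its adjusted p beside the point and no error bar. All 9 points, from 1.71 to 3.06, lie to the right of the dashed line at 1.31, the median of all genes listed as higher.

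Linker and core histone genes overlapped in fold. The 2 linker genes had a median log2 fold of 2.89 and the 7 core genes one of 2.07, a difference of 0.82, all computed from the authors' deposited table. Of the core genes 6 lay below both linker genes and Hist3h2a lay between them. With 2 genes in 1 class, and no spread for any fold, the difference was not tested.

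Genes from 3 histone clusters were among the 9. The 5 genes of the Hist1 cluster had log2 folds of 1.88 to 3.06, the 2 of the Hist2 cluster 1.71 and 2.53, and the 2 of the Hist3 cluster 1.97 and 2.78, in the authors' deposited table. These ranges overlap. In the RefSeq gene table the clusters lie on chromosomes 13, 3 and 11. Within 100 kb of the 9 genes on the GRCm38 build lie 37 other histone genes and 25 other protein-coding genes. None of the 37 could be listed, since the 9 are all the histone cluster genes in the lists. Of the 25, 0 were listed in the homozygous or the heterozygous comparison. In the homozygous comparison 1.7% of all protein-coding symbols were higher and 2.75% lower. A count of 0 among 25 is near that background, and nothing is read from it.

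Among the 416 genes listed as higher in Chd7Gt/Gt otocysts, the 9 histone genes ranked between 28 and 141 by log2 fold. The median of all 416 was 1.31 in the authors' deposited table. As many as 141 of them, or 33.9%, had a fold at least as large as that of Hist2h2be, the lowest of the 9. By adjusted p the 9 genes were spread more widely, with Hist3h2a at rank 39 and Hist2h3c1 at rank 260.

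**Figure D3:**
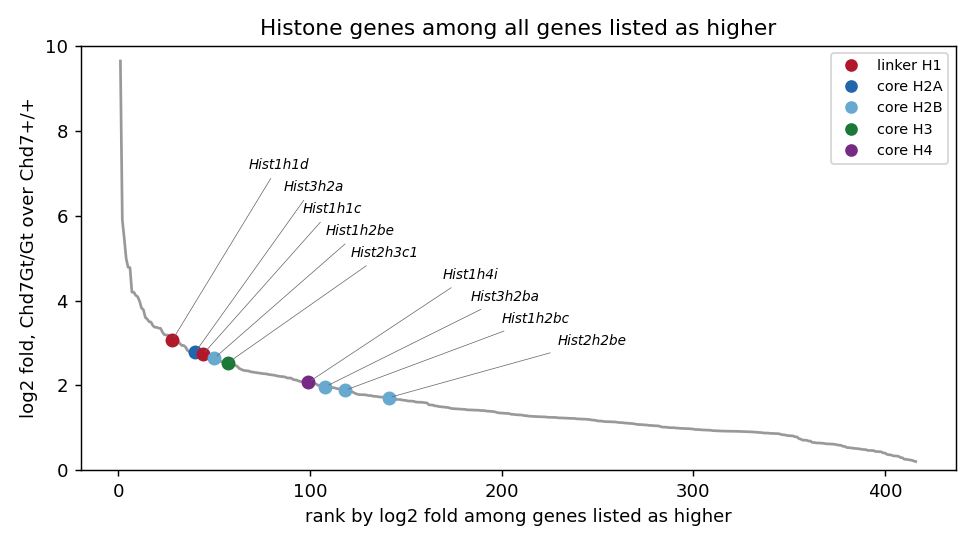
Log2 fold in Chd7Gt/Gt over Chd7+/+ otocysts against rank for all 416 genes listed as higher (grey line), with the 9 histone genes marked by class. The histone genes fall between ranks 28 and 141, in the upper part of the curve but below its steep start.

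The genes nearest in size to the median of the 9, among those listed as higher in the homozygous and not in the heterozygous comparison, were Epo, which encodes the hormone erythropoietin (log2 2.54), P4ha1, a collagen prolyl hydroxylase gene (2.55), and Slc2a1, a glucose transporter gene (2.55), in the authors' deposited table. Their log2 folds differed from the median of 2.53 by 0.00742, 0.0171 and 0.02. The likeness is of 1 fold in 1 comparison and not of a profile over libraries.

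In heterozygotes the absence of all 9 from the lists leaves their folds unknown. Chd7 itself was listed in both comparisons, at log2 -2.16 in Chd7Gt/Gt (adjusted p 1.54e-10) and -0.57 in Chd7Gt/+ otocysts (adjusted p 7.27e-07), both from the authors' deposited table. Of the 416 genes higher in homozygotes 8, or 1.92%, were listed in heterozygotes in either direction. The difference between the genotypes was not tested for any histone gene.

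Most genes of the histone clusters were not listed. GENCODE M21 holds 67 protein-coding genes with such names, and the 9 higher genes were 13.4% of them, against the 1.7% of all protein-coding symbols given above. Calling chose the 9 genes, so no enrichment of the family is read from this share. The other 58 were not listed in either direction in Chd7Gt/Gt otocysts, and 0 of the 67 were listed in Chd7Gt/+ otocysts. In a list of 68 names written for the family, 1 of which has no protein-coding match in GENCODE M21, those listed were 2 of 6 H1, 1 of 18 H2A, 4 of 19 H2B, 1 of 12 H3 and 1 of 13 H4 genes.

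The annotated 3′ ends of listed and unlisted family members are set side by side here as a description, with no test. The median transcript length was 1825 nt for the 9 listed genes and 522 nt for the other 58, and the transcript behind the stop codon had a median of 1213 nt in the listed and 87 nt in the other genes. A transcript of at least 1000 nt was annotated for 7 of the 9 listed genes and for 11 of the other 58. A poly(A) signal within 50 nt of the end was found in 7 of the 9, or 77.8%, and in 9 of the other 58, or 15.5%. A stem-loop behind the stop codon was found in 7 of the 9 and 36 of the other 58. The stem-loop form shared by 6 of the listed genes was also the commonest among the others, in 19 of those 36. Some of the other 58, such as Hist1h2ai, Hist1h3h and Hist1h4k, are annotated with 0 nt behind the stop codon. Such transcripts can hold neither a stem-loop nor a poly(A) signal there, so the lengths and counts depend in part on how far annotation goes. This holds for listed genes too. In RefSeq the spans of Hist1h1c, Hist1h4i, Hist2h3c1, Hist3h2a and Hist3h2ba are shorter than their GENCODE M21 transcripts, and signals were not counted there. Annotated ends rest in part on cDNA made from tailed RNA, and the part of annotation or of poly(A) selection in which genes were listed was not tested.

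**Figure D4:**
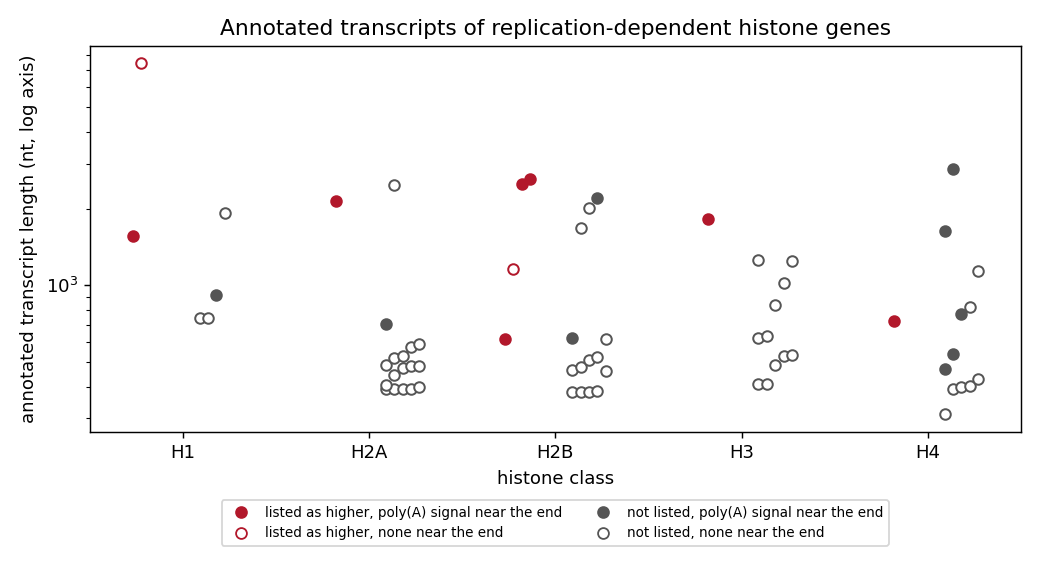
Length of the longest annotated coding transcript (nt, log axis) of 67 histone genes by class, listed genes in red to the left and unlisted ones in grey to the right within a class, filled where a poly(A) signal lies within 50 nt of the end. The median is 1825 nt for the listed genes and 522 nt for the others, and long unlisted transcripts occur in every class.

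Transcript length is given for the whole comparison as a description, with no test. By the longest annotated transcript of any kind the 9 histone genes had a median of 1825 nt, the genes listed as higher 2700 nt and those listed as lower 4844 nt. These medians are over the 390 of 416 higher and 613 of 669 lower genes whose symbols matched GENCODE M21 directly. Of the 9 genes 7 have a single exon in the transcript used here. The part of length in the histone folds was not tested.

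Close copies limit which histone gene a read can be assigned to, and how reads shared between genes were counted is not given in the sources used here. For each gene, the share of the 50 nt stretches of its transcript that also occur in an annotated transcript of another gene, on either strand, was counted. Hist2h2be had a share of 0% (0 of 2571 stretches), Hist1h1d 2.25% and Hist1h1c 8.54%. These 3 genes, which include the largest and the smallest fold of the 9, have the GENCODE M21 transcripts least shared with other genes. The RefSeq spans of Hist1h1d (776 nt) and Hist1h1c (725 nt) are shorter, and shares over those spans were not counted. The share was 17.9% in Hist1h2be, 22.1% in Hist3h2ba, 28.9% in Hist1h4i, 30.6% in Hist1h2bc and 31.5% in Hist3h2a. It was 100% in Hist2h3c1, the whole of which lies within the transcript of Gm20634, and this fold cannot be assigned to Hist2h3c1 alone.

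The coding sequences of Hist1h2bc and Hist1h2be were 98.4% identical, and Hist1h2bc was 99.5% identical to Hist1h2bq, which was not listed. Between the other pairs of listed H2B genes identity was 85.2 to 89.9%, and between Hist1h1c and Hist1h1d it was 86.2%. Over the shorter of the pair, the coding sequence of Hist2h3c1 was identical to that of the unlisted Hist2h3c2. Of its stretches, Hist3h2a shared 31.5% with Trim17, whose annotated span overlaps it on the same strand, and Trim17 was not listed. Hist1h2be overlaps the linker gene Hist1h1e on the same strand, which was not listed either. The fold of each of these genes is uncertain to the extent that reads were split between them.

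Promoter sequences from RefSeq on GRCm38.p6, from 250 bases before to 50 after the start site, were at hand for 7 of the 9 genes. They were searched on both strands for CCAAT (the CCAAT box), TATAAA (the TATA box), ATTTGCAT (the octamer known from H2B promoters, bound by POU factors) and AAACACA (an element known from H1 promoters). Of the motifs found in the 8 promoters of these genes, 0 pairs overlapped. A histone gene was counted if any of its promoters held the motif, while the promoters of all genes were counted singly. CCAAT was in 6 of the 7 genes, in 85.2% of 54 other histone genes and in 37.4% of 32851 promoters of all genes. In Hist2h3c1 the CCAAT lay behind the start site and not upstream of it. TATAAA was in 3 of the 7, in 59.3% of the other histone genes and in 13.6% of all promoters. The TATAAA nearest the start site lay 26 bases upstream in Hist1h1d, 39 in Hist3h2ba and 137 in Hist1h4i. Matches were counted wherever in the window they lay. The octamer was in 2 of the 7, in 22.2% of the other histone genes and in 1.74% of all promoters. AAACACA was in 2 of the 7, in 13% of the other histone genes and in 7.18% of all promoters. The motifs are thus shared with histone genes that were not listed.

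Promoters are shown for both linker genes, for comparison with each other, and for the core genes with an octamer, with every motif found in capitals. The linker promoters each hold AAACACA and, nearer the start, CCAAT, at 112 and 54 bases upstream in Hist1h1c and at 122 and 51 bases upstream in Hist1h1d. The regions are chr13:23738557-23738856 on the plus strand for Hist1h1c, chr13:23554782-23555081 on the plus strand for Hist1h1d, chr11:58954435-58954734 on the plus strand for Hist3h2a and chr13:23585921-23586220 on the minus strand for Hist1h2be, all on GRCm38.p6.
Hist1h1c: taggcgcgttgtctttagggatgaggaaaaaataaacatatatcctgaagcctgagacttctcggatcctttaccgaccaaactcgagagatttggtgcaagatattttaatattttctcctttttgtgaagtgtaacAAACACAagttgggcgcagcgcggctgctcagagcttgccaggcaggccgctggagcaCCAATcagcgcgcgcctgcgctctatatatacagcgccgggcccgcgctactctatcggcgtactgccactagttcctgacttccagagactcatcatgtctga
Hist1h1d: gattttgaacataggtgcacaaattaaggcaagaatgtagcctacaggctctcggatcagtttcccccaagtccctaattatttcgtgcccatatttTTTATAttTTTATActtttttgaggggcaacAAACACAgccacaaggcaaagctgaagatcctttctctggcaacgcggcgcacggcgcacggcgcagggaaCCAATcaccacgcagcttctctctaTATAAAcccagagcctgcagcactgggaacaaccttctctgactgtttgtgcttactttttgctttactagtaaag
Hist3h2a: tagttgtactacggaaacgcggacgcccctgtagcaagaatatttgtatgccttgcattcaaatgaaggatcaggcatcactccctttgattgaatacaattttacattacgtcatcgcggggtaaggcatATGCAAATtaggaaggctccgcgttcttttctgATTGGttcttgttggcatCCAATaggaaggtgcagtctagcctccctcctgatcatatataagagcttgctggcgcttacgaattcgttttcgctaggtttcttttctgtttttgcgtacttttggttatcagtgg
Hist1h2be: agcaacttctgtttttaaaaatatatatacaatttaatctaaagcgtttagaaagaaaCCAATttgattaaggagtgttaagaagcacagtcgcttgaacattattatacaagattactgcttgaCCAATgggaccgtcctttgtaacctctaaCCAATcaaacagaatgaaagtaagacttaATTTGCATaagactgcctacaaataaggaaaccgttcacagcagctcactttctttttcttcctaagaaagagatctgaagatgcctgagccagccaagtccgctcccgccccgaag

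The octamer lay 119 bases upstream of the start in Hist3h2a, on the reverse strand, and 67 bases upstream in Hist1h2be. Hist1h2be has a second RefSeq start site, without an octamer. A match of letters is a description of the window and says nothing of which factor binds there.

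Genes that act with histones in S phase were counted in the same lists. Of 50 S phase and DNA replication genes, which include the replicative helicase and polymerase genes, 0 were listed in Chd7Gt/Gt and 0 in Chd7Gt/+ otocysts. Of 30 genes of histone mRNA processing and 3′ end formation, among them the gene of SLBP, 0 were listed in either comparison. Of all protein-coding symbols 1.7% were higher and 2.75% lower in the homozygous comparison, so counts of 0 in lists of these sizes are near the background and no difference from other genes is read from them. The lists hold called genes alone, so neither unadjusted p-values nor folds of these genes can be given.

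Of 11 replication-independent histone genes, which make tailed mRNAs throughout the cell cycle, 1 was listed in Chd7Gt/Gt otocysts and it was lower. This was H2afy, the gene of the variant macroH2A1 (log2 -0.31 and adjusted p 0.017 in the authors' deposited table). Hp1bp3, which encodes a protein related to linker histones and was chosen after its value was seen, was also lower (log2 -0.19 and adjusted p 0.0135 in the authors' deposited table). Both changes are small beside those of the 9 genes. Of 22 histone chaperone genes 1 was listed, the nucleosome assembly gene Nap1l1, which was higher (log2 0.62 and adjusted p 0.0083 in the authors' deposited table). Among all protein-coding symbols 1.7% were higher and 2.75% lower, but 1 of 11 and 1 of 22 rest on 1 gene each. No difference from other genes is read from these counts.

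Of 24 genes of cell cycle exit and its control, 4 were listed in Chd7Gt/Gt otocysts, all 4 higher, beside 1.7% higher and 2.75% lower among all protein-coding symbols. They were the stress-induced gene Gadd45b (log2 2.09, adjusted p 0.000875), the CDK inhibitor genes Cdkn1b (1.23, adjusted p 0.00219) and Cdkn1c (0.47, adjusted p 0.0396), and the cyclin G2 gene Ccng2 (0.97, adjusted p 0.014), as log2 folds in the authors' deposited table. None of these lists had a member listed in Chd7Gt/+ otocysts. Of all genes listed in the homozygous comparison 38.3% were higher. The gene lists were chosen with earlier results of these data known. Nothing is therefore read from the count of 4 of 24 or from its direction.

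**Figure D5:**
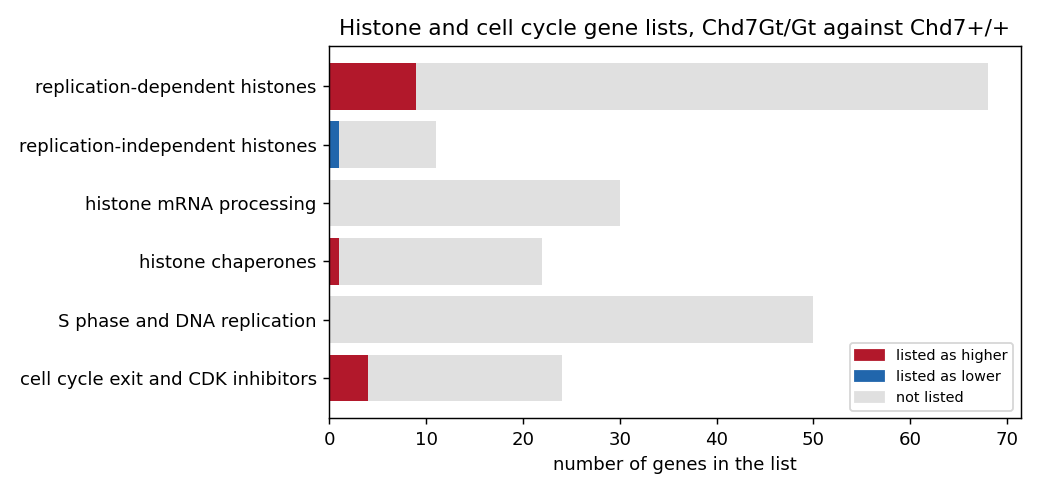
Number of genes in each of 6 lists that were called higher (red), called lower (blue) or not listed (grey) in Chd7Gt/Gt against Chd7+/+ otocysts. The histone list has 9 higher of 68 and the cell cycle exit list 4 higher of 24. The S phase list of 50 and the histone mRNA processing list of 30 have 0 listed. The lists were chosen with earlier results of these data known, and no difference between them is read from these counts.

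The lists also hold other changes that stand beside these folds. Of 10 marker genes of the otic epithelium, 2 were listed, both lower in Chd7Gt/Gt otocysts, beside 2.75% lower among all protein-coding symbols. They were Oc90, a gene of the otoconial matrix (log2 -2.21), and the placodal gene Eya1 (-1.33), in the authors' deposited table. This list too was chosen with earlier results of these data known, and nothing is read from its count. Levels were not used here, so the labelled tissue could not be checked against its markers. The X-inactivation transcript Xist, chosen after its value was seen, was at log2 9.64 in the authors' deposited table, and embryo sex is not in the labels. The part of sex, and of the mixture of cells, in the histone folds was not tested. In tissue RNA a change in the share of cells that make a transcript and a change in the amount per cell cannot be told apart.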

How the data were processed

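The deposited files are 4 lists of called genes, higher and lower, for Chd7Gt/Gt and for Chd7Gt/+ against Chd7+/+ otocysts. The log2 fold changes and the adjusted p-values in them were computed by the authors before deposit. Bowtie2 2.0.6, DESeq 1.22.1 and the build mm9 are listed in the submitters' processing notes, without their roles. Read counting, filters and the number of genes tested are not stated there. All adjusted p-values deposited lie under 0.05. Groups follow the genotype labels.

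No test was fitted, since no value per library was used here, and the edgeR test planned for counts was not run. The calls of the authors were counted by direction. The 9 genes and the gene lists were chosen with earlier results of these data known. The genes named are the 9, Chd7, up to 4 listed genes of each list by adjusted p, and the 3 nearest in fold. Xist and Hp1bp3 lie outside this rule and were chosen after their values were seen. Sequences and lengths come from GENCODE M21 and RefSeq, on another build than mm9, matched by symbol or synonym. The stem-loop, stretch and motif searches were tested on simulated sequences. Python 3.11.15, Biopython 1.88 and matplotlib 3.10.9 were used.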

Additional observations from a re-analysis of the deposited data

How the results depend on the processing

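The 9 histone genes listed as higher in Chd7Gt/Gt otocysts became 8 at an adjusted p under 0.01, which left out Hist2h3c1, and stayed 9 with a log2 fold of 1 or more in size, with all cluster-type symbols taken or with matched symbols alone. Their median log2 fold was 2.35 at the stricter p and 2.53 in the other settings. The heterozygous count was 0 throughout. Of the 137 genes in the lists of S phase, replication-independent histone, histone mRNA processing, chaperone and cell cycle exit genes, 6 were listed in homozygotes, 3 at an adjusted p under 0.01 and 2 with a log2 fold of 1 or more in size, because both settings only remove genes. In settings chosen after seeing the data, a poly(A) signal near the transcript end was found in 6 of the 9 genes and 7 of the other 58 within 30 nt, and in 5 and 7 with AATAAA alone. No paired analysis was possible because the lists hold comparisons and no libraries, and for the same reason no library could be left out. The unknown depth limits what absence from a list can show.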
